A study of Mus musculus with 6 samples.

Results

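The 39 genes described here cover the uptake and mitochondrial oxidation of fatty acids. They were listed by gene symbol for what their products are known to do, with earlier results of these data known, and all 39 were found among the 22298 genes of the deposited table. Hearts of wild-type (WT) female mice aged 18 months were sampled after sham surgery or after TAC surgery, with 3 libraries per group, in a series titled for GPR30, Trex1 and NETs in heart failure. No other allele or agent is named for either group. TAC is the usual abbreviation for transverse aortic constriction, which narrows the aorta and loads the left ventricle with pressure. The sources used here do not give the strain, the time from surgery to sampling or the part of the heart taken. The titles number the hearts without saying that each came from its own animal, so p-values measure the spread between these libraries. The question was at which steps, from uptake to the last thiolase, RNA levels differed between TAC and sham hearts.

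The adult heart draws most of its fuel from fatty acids. They are freed from circulating lipoproteins by lipoprotein lipase, taken up by CD36 and fatty acid transport proteins, carried in the cell by fatty acid binding protein, and activated to acyl-CoA by acyl-CoA synthetases. The carnitine shuttle moves long chains into the mitochondrion, where repeated rounds of dehydrogenation, hydration, a further dehydrogenation and thiolytic cleavage shorten them to acetyl-CoA, and electron transfer flavoprotein passes electrons on to the respiratory chain. Malonyl-CoA blocks the entry step, and nuclear receptors of the PPAR and ERR families are known activators of many of these genes. In loaded, hypertrophied hearts a shift from fatty acids towards glucose is a textbook theme.

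The libraries held between 19747265 and 27549838 estimated counts, of which the 13 mitochondrially encoded genes took 25.7% to 30.5%. In Nppb, as in most of the fatty acid genes described below, TAC replicate 1 was nearer to sham than TAC replicates 2 and 3, while over all genes TAC replicates 1 and 2 were the most alike pair of TAC libraries (by a chi-square of their counts, 78.2 per degree of freedom, against 85.6 for TAC replicates 2 and 3). For Nppb, the natriuretic peptide B gene induced by load, the sham libraries had 54.0, 46.7 and 62.4 FPKM (counts scaled to the length of the gene and the total of the library) and the TAC libraries 203, 712 and 1143 FPKM. All TAC libraries were thus above all sham libraries for Nppb, with TAC replicate 1 the lowest of them. Levels below are deposited FPKM values, which can be compared between genes. Differences are log2 fold changes of TAC over sham from edgeR's quasi-likelihood test on the estimated counts, with p-values adjusted over all 13708 tested genes and a threshold of 0.05.

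No single fatty acid gene passed that test, while most had a lower mean level in TAC. All 39 passed the filter on low counts, and 0 were called higher and 0 lower. Over all tested genes 1.12% were called higher and 0.540% lower by edgeR. At an unadjusted p under 0.05, edgeR gave 2 higher and 15 lower members, against 16.3% higher and 9.26% lower among all tested genes. At an adjusted p under 0.10 there were 2 higher (Acsl4, Acsl5) and 4 lower members (Acacb, Acot1, Cpt1a, Mlycd), against 8.25% and 3.49% of all tested genes. The smallest adjusted p was 0.0661, for Acacb. The log2 fold change was below 0 in 34 of 39 members, against 47.1% of all tested genes (52.9% were above 0), and its median was -0.39, against 0.03 for all tested genes. The 5 members above 0 were Cd36, Lpl, Acsl3, Acsl4 and Acsl5. Mean levels over all 6 libraries ran from 1.14 FPKM for Acad10 to 2920.0 FPKM for Fabp3.

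The 3 TAC hearts were unlike each other in these genes. The median member stood 0.01, -0.56 and -0.71 log2 units from the sham mean in TAC replicates 1, 2 and 3, where the medians of the sham libraries lay between -0.07 and 0.04. In TAC replicate 1, 15 members lay within the range of the sham libraries, 13 below it and 11 above it. The shares of all tested genes in these positions were not counted, so these numbers describe the members only. In TAC replicates 2 and 3, 31 of 39 members were below every sham library in both hearts, as were 22.5% of all tested genes. Over all 3 TAC libraries, 13 members (33.3%) had FPKM values below every sham value and 2 (5.13%) above, against 14.2% and 14.8% of all tested genes. On CPM (counts relative to library totals scaled by the trimmed mean of M-values) these were 9 below (23.1%) and 2 above, against 13.1% and 18.4%. The summed level of the 39 genes was 10514 to 11995 FPKM in sham and 7821 to 11553 FPKM in TAC. In bulk tissue, fewer cells of a type and less RNA per cell cannot be told apart.

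**Figure D1:**
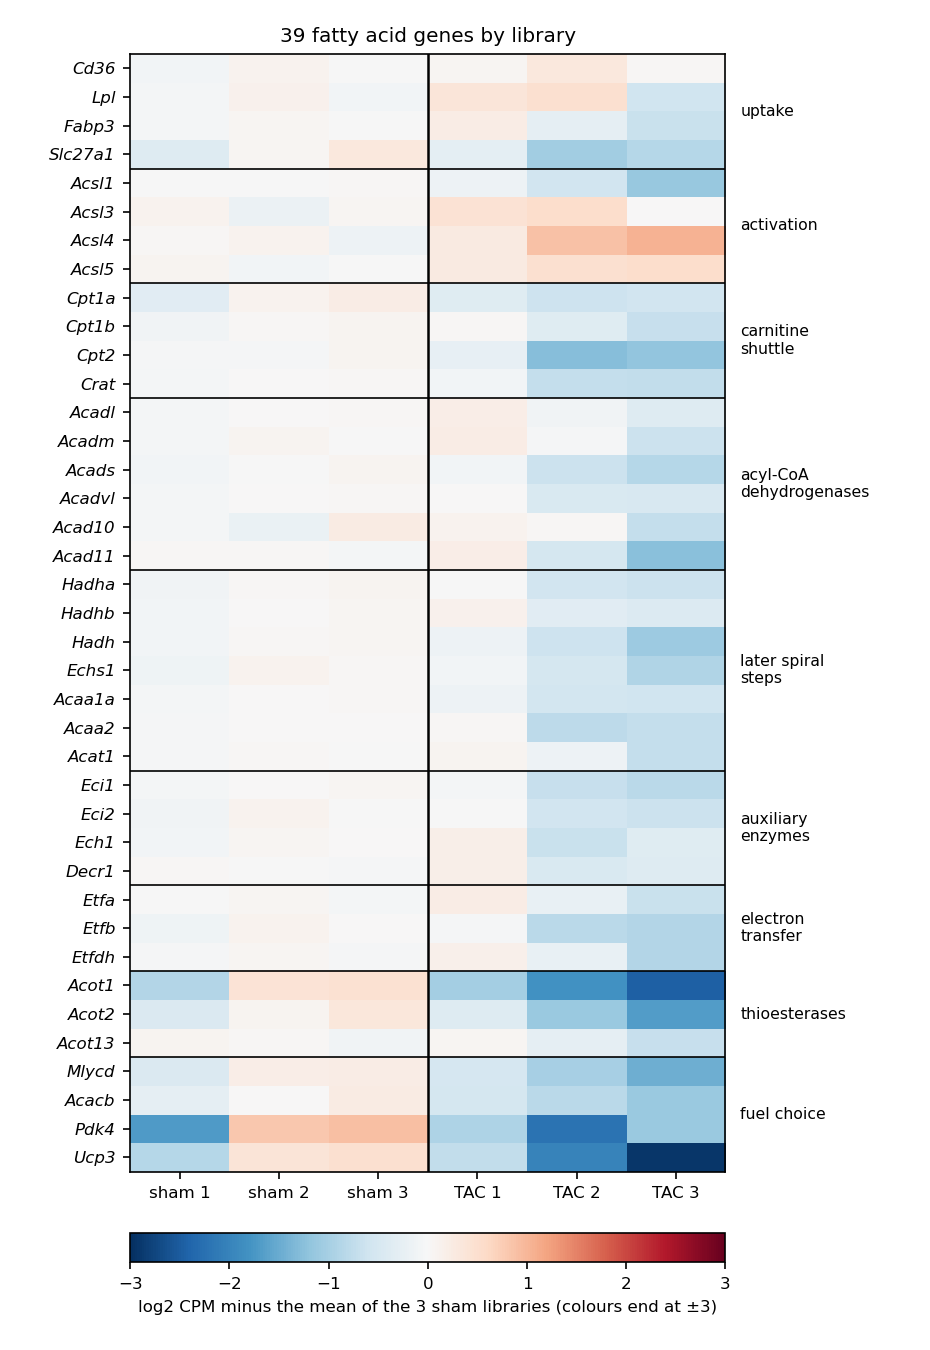
Each row is 1 of the 39 genes, grouped by role, and each column 1 library, and colour gives log2 CPM minus the mean of the 3 sham libraries. Most genes are paler in TAC replicate 1 than in TAC replicates 2 and 3, and Pdk4, Ucp3, Acot1 and Acot2 are low in sham replicate 1 as well.

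The calls depended on TAC replicate 1 and on the test. Without that library edgeR called 24 members lower (61.5%) and 2 higher (5.13%), against 10% (1392 of 13907) and 13.2% of all genes tested in that fit, and the median log2 fold change of the members was -0.62. Only TAC replicates 2 and 3 remained in that fit, and the library left out was the one nearest to sham in most of these genes. Leaving it out widened their differences by construction, so calls from that fit, here and below, are no independent support. Leaving out any other library gave 0 member calls, but few genes of any kind passed in those fits. Without sham replicates 1, 2 and 3 in turn, 6, 7 and 4 of all genes passed as higher and 10, 9 and 8 as lower. These were 20 and 16 of 13818 without TAC replicate 2, and 82 and 52 of 13898 without TAC replicate 3. DESeq2's Wald test on all 6 libraries called 7 lower (17.9%) and 2 higher (5.13%), against 4.36% and 7.81% of all tested genes. The 7 were Acacb, Acot1, Acot2, Cpt1a, Cpt2, Mlycd and Slc27a1, and the 2 were Acsl4 and Acsl5. Limma-voom with library weights called 17 lower (43.6%) and the same 2 higher, against 5.22% and 10.1%. That test lets libraries count unequally, and the weights are not given here. Its median log2 fold change of the members, -0.49, lay between edgeR's on all 6 libraries (-0.39) and without TAC replicate 1 (-0.62). Its calls are therefore not taken as separate support. The order of the members by fold change, with the values without TAC replicate 1, is drawn in the plot of fold changes.

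**Figure D2:**
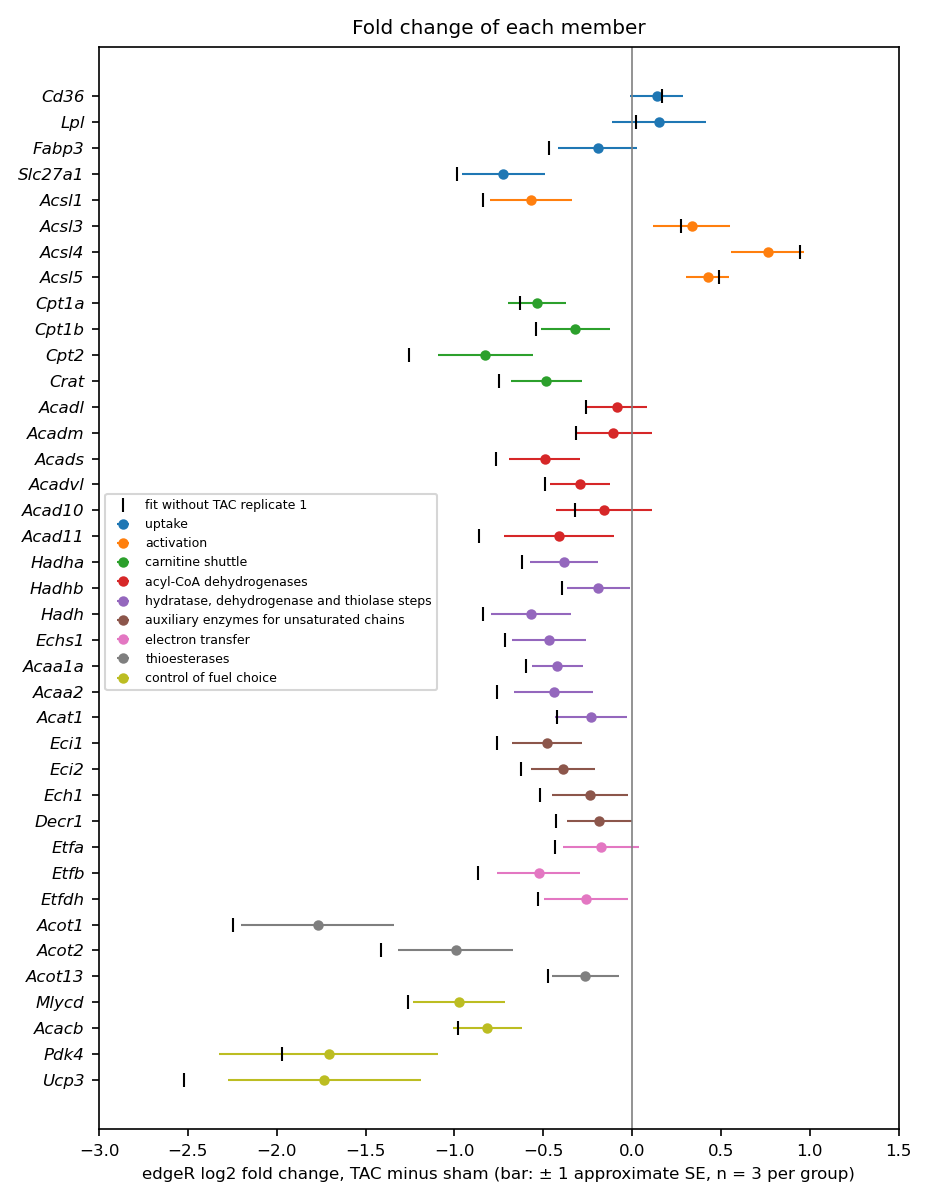
Points give the edgeR log2 fold change of TAC over sham for each gene, coloured by role, with bars of 1 approximate standard error, and black ticks give the value without TAC replicate 1. The largest negative values belong to Acot1 (-1.77), Ucp3 (-1.73) and Pdk4 (-1.71), and only Cd36, Lpl, Acsl3, Acsl4 and Acsl5 lie above 0.

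Genomic sequence at the starts of these genes was examined for response elements of the receptors known to activate them. RefSeq promoter windows (GRCm38.p6, 250 bases before to 50 after a start) matched 32 of the 39 genes, with 35 windows. The element of estrogen-related receptors, TNAAGGTCA, was searched on both strands with no mismatch and was found in 0 of 35 windows, against 1.28% of all 32851 windows. The PPAR element, AGGTCA repeated in the same direction with any 1 base between, was searched on both strands with up to 2 mismatches and was found in 4 of 35 windows (11.4%), against 3.86% of all windows. The motifs share the letters AGGTCA, so a match to one can overlap the other. The 4 matches are shown with 15 bases on each side, on the strand of the gene and with the match in capitals, because their genes differ in how they stood in TAC. A match is a description of letters and not a known site.
Ucp3: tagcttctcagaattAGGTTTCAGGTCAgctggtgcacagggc
Cd36: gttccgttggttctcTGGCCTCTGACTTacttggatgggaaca
Echs1: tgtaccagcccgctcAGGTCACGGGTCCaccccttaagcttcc
Etfa: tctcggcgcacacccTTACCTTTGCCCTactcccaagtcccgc
They lie at chr7:100472925-100472967 on the plus strand, chr5:17835932-17835974 on the minus strand, chr7:140116477-140116519 on the minus strand and chr9:55512293-55512335 on the minus strand. The match begins 51 bases before the start of Ucp3 and 83 before that of Echs1, both on the strand of the gene. For Cd36 and Etfa it begins 63 and 77 bases before the start, on the other strand. The RefSeq start used for Cd36, at 17835896, lies inside the gene as annotated by GENCODE (17781690 to 17888801, minus strand). It is thus an internal start and not the outer end of that gene. The log2 fold changes of these genes spanned from -1.73 for Ucp3 over -0.47 for Echs1 and -0.18 for Etfa to 0.14 for Cd36, a span from the lowest values to the few above 0.

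Genes of uptake and intracellular carriage differed in how they stood, with a log2 fold change above 0 for the transporter CD36 and for lipoprotein lipase and below 0 for the transport protein FATP1. Cd36 (ENSMUSG00000002944, chromosome 5, 17781690 to 17888801 on the minus strand) encodes the main fatty acid transporter of the heart and had 509, 589 and 561 FPKM in sham replicates 1, 2 and 3 and 544, 670.4 and 583 FPKM in TAC replicates 1, 2 and 3. All TAC values lay within or above the sham range, and the groups overlapped, with a log2 fold change of 0.14 (adjusted p = 0.580, SE 0.15). Lpl, which encodes lipoprotein lipase, had 483, 547 and 502 FPKM in the sham and 611, 690.4 and 355 FPKM in the TAC libraries. TAC replicates 1 and 2 were above every sham library and TAC replicate 3 was below them all, so that the log2 fold change of 0.15 (adjusted p = 0.747, SE 0.27) is an average over opposite deviations, and was -0.069 without TAC replicate 2. Fabp3, the heart-type fatty acid binding protein gene, was the most abundant member, with 2970.1, 3228 and 3201 FPKM in the sham and 3470.2, 2546 and 2106 FPKM in the TAC libraries, and a log2 fold change of -0.19 (adjusted p = 0.601, SE 0.22). TAC replicate 1 was the highest of all 6 libraries for Fabp3 and TAC replicate 3 the lowest. Of the 100-base stretches of its transcripts 21.7% also occur in the pseudogene Fabp3-ps1, so some of its reads may not be unique. Slc27a1, the gene of FATP1, had 32.3, 45.2 and 54.0 FPKM in the sham and 32.3, 19.7 and 26.3 FPKM in the TAC libraries. Its lowest sham value, 32.32 in replicate 1, was barely above its highest TAC value, 32.26 in replicate 1. The log2 fold change of Slc27a1 was -0.72 (adjusted p = 0.108, SE 0.23), and -0.99 (adjusted p = 0.0206) without TAC replicate 1.

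Among the long-chain acyl-CoA synthetases, which activate fatty acids on entry, the abundant Acsl1 had lower values in TAC while the minor Acsl4 and Acsl5 had higher ones. Acsl1 (ENSMUSG00000018796, chromosome 8, 46471037 to 46536051 on the plus strand), the main form in heart, had 262, 264 and 284 FPKM in sham replicates 1, 2 and 3 and 229, 179 and 131 FPKM in TAC replicates 1, 2 and 3. Every TAC library was below every sham library, with means of 270.2 ± 12.3 FPKM in sham and 179 ± 48.9 FPKM in TAC (SD, n = 3 each) and a log2 fold change of -0.57 (adjusted p = 0.173, SE 0.23). Acsl4, whose enzyme prefers arachidonic acid, had 2.42, 2.49 and 2.17 FPKM in the sham and 2.71, 4.29 and 5.14 FPKM in the TAC libraries, again without overlap but in the other direction, and a log2 fold change of 0.76 (adjusted p = 0.0801, SE 0.21). Acsl5 had 8.28, 7.84 and 8.08 FPKM in the sham and 8.97, 12.6 and 12.1 FPKM in the TAC libraries, also without overlap, and a log2 fold change of 0.43 (adjusted p = 0.0867, SE 0.12). DESeq2's adjusted p was 0.0198 for Acsl4, 0.0488 for Acsl5 and 0.0686 for Acsl1. Acsl3 had low levels, 1.37, 1.76 and 1.33 FPKM in the sham and 1.56, 2.23 and 1.97 FPKM in the TAC libraries, that overlapped between groups, with a log2 fold change of 0.34 (adjusted p = 0.358, SE 0.22). The gene Zdhhc6 overlaps Acsl5 on the opposite strand and Utp14b overlaps Acsl3 on the same strand, so reads in the shared parts may not have been told apart.

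Acsl1 made up 95.6%, 95.6% and 96.1% of the summed FPKM of these 4 genes in sham replicates 1, 2 and 3 and 94.5%, 90.3% and 87.2% in TAC replicates 1, 2 and 3. The means were 95.8% ± 0.276 in sham and 90.7% ± 3.68 in TAC (SD, n = 3 each), and the groups did not overlap. An exact two-sided permutation test of log2 of the share gave p = 0.1, the smallest that 3 against 3 allows, so this design could not reach 0.05. The share was chosen after its values were seen. It leaves out Acsl6, a further gene of this family that is not a member. Acsl6 had 2.98, 2.32 and 1.71 FPKM in the sham and 2.84, 3.34 and 2.75 FPKM in the TAC libraries, with overlap. Its log2 fold change was 0.53 (edgeR adjusted p = 0.125, SE 0.18).

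**Figure D3:**
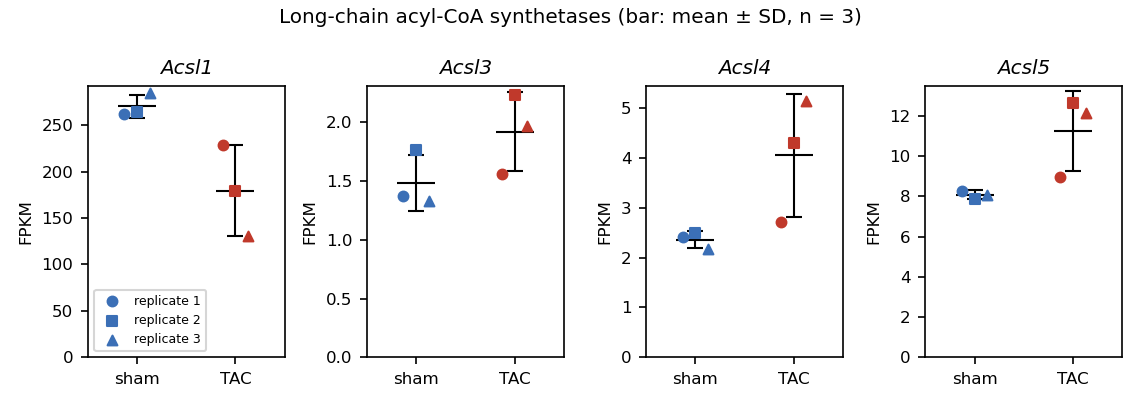
Points give the FPKM of the 4 long-chain acyl-CoA synthetase genes among the 39 members in each library, with circle, square and triangle for replicates 1, 2 and 3, and bars give mean ± SD (n = 3). Acsl1 values are all lower in TAC, Acsl4 and Acsl5 values are all higher, and the axes differ in scale because Acsl1 is the most abundant by far.

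All 4 genes of the carnitine shuttle had negative log2 fold changes, with a median of -0.51. In 3 of them, Cpt1a, Cpt2 and Crat, all TAC values lay below all sham values, as in 14.2% of all tested genes (FPKM). Cpt2 (ENSMUSG00000028607, chromosome 4, 107903981 to 107923610 on the minus strand) encodes the inner-membrane carnitine palmitoyltransferase, which hands the chain back to CoA, and had 111, 111 and 126 FPKM in sham replicates 1, 2 and 3 and 93.5, 47.4 and 53.7 FPKM in TAC replicates 1, 2 and 3. TAC replicates 2 and 3 were at less than 50% of the lowest sham value, while TAC replicate 1 was nearer to the sham range but below it. The log2 fold change of Cpt2 was -0.83 (adjusted p = 0.108, SE 0.27), and -1.25 (adjusted p = 0.00315) without TAC replicate 1, the smallest adjusted p of any member in that fit. Crat, carnitine acetyltransferase, which exports surplus acetyl groups, had 165, 177 and 186 FPKM in the sham and 160.1, 105 and 107 FPKM in the TAC libraries. Crat in TAC replicate 1 was close to the lowest sham library, with TAC replicates 2 and 3 well below, and it had a log2 fold change of -0.48 (adjusted p = 0.175, SE 0.20).

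The entry step itself is catalysed by CPT1, the enzyme that malonyl-CoA inhibits, of which the heart has a muscle and a liver form. Cpt1b, the muscle form, had 197, 218 and 236 FPKM in the sham and 209, 166 and 141 FPKM in the TAC libraries, and a log2 fold change of -0.32 (adjusted p = 0.332, SE 0.20). TAC replicate 1 lay inside the sham range and TAC replicates 2 and 3 below it. Its deposited counts were fractional, and 78.5% of its 100-base stretches also occur in the overlapping gene Gm44502, and how shared reads were assigned is not stated. Cpt1a, the liver form, had 19.7, 26.9 and 30.3 FPKM in the sham and 18.6, 16.4 and 17.9 FPKM in the TAC libraries. The TAC libraries lay close together for Cpt1a, all below the lowest sham library, and the log2 fold change was -0.53 (adjusted p = 0.0965, SE 0.16). The ratio of Cpt1a to Cpt1b FPKM was 0.117 ± 0.0151 in sham and 0.105 ± 0.0200 in TAC (SD, n = 3 each), with overlap, and an exact two-sided permutation test of log2 of the ratio gave p = 0.4.

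The acyl-CoA dehydrogenases, which start each round for chains of a given length, had negative log2 fold changes in all 6 genes, with a median of -0.23. Acadvl, the very-long-chain form, had 410.3, 431 and 458 FPKM in the sham and 415, 310.2 and 327 FPKM in the TAC libraries, and a log2 fold change of -0.30 (adjusted p = 0.307, SE 0.17). TAC replicate 1 lay within the sham range for Acadvl and the other TAC libraries below it. Its counts were fractional, and Dvl2 overlaps it on the opposite strand. Acadl, the long-chain form, had 374, 398 and 419 FPKM in the sham and 431, 363 and 319 FPKM in the TAC libraries, and a log2 fold change of -0.09 (adjusted p = 0.777, SE 0.17). TAC replicate 1 had the highest Acadl value of all libraries and TAC replicates 2 and 3 the lowest. The medium-chain gene Acadm and the short-chain gene Acads had log2 fold changes of -0.11 and -0.49, and only Acads of the 6 had FPKM groups that did not overlap. Acad11 and Acad10, which act on unusual chains, had -0.41 and -0.16. The range over the 6 was -0.49 to -0.09. In TAC replicates 1, 2 and 3 their median stood 0.15, -0.28 and -0.68 log2 units from the sham mean. Without TAC replicate 1, Acads, Acadvl and Acad11 passed as lower, while Acadl (adjusted p = 0.223) and Acadm (adjusted p = 0.286) did not.

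The hydratase, hydroxyacyl-CoA dehydrogenase and thiolase steps all had negative values, with a median log2 fold change of -0.42 over 7 genes and a range from -0.57 to -0.19. Hadhb, the thiolase subunit of the trifunctional protein, had 777, 833 and 891 FPKM in the sham and 868, 643 and 662 FPKM in the TAC libraries, and a log2 fold change of -0.19 (adjusted p = 0.524, SE 0.18). Of its 100-base stretches 46.0% also occur in the pseudogene Gm13910. Acaa2, the mitochondrial thiolase for shorter chains, had 483, 506 and 527 FPKM in the sham and 489, 289.6 and 328 FPKM in the TAC libraries, and a log2 fold change of -0.44 (adjusted p = 0.248, SE 0.22). In both genes TAC replicate 1 lay within the sham range and TAC replicates 2 and 3 below it. The short-chain hydroxyacyl-CoA dehydrogenase gene Hadh had the lowest value of the 7 (-0.57), without overlap between groups, as had the peroxisomal thiolase gene Acaa1a (-0.42). The crotonase gene Echs1 was at -0.47 and Acat1, whose enzyme also serves ketone body metabolism, at -0.23. Without TAC replicate 1, Hadh, Hadha, Echs1, Acaa1a and Acaa2 passed as lower, while Hadhb (adjusted p = 0.0597) and Acat1 (adjusted p = 0.144) did not.

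Hadha and Hadhb, the subunits of the trifunctional protein, lie head to head on chromosome 5, and their RefSeq start sites, at 30154980 and 30155253 in GRCm38.p6, are 273 bases apart. The 85 bases between their first exons in GENCODE M21, read from the genome of that build, are shown because both genes are transcribed away from them.
Hadha-Hadhb: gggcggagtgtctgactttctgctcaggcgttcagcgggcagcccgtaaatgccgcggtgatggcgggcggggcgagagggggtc
They lie at chr5:30155163-30155247 on the plus strand, with a GC content of 69.4%, and hold neither motif. Hadha, the subunit with hydratase and dehydrogenase activity, had a log2 fold change of -0.38 (adjusted p = 0.245, SE 0.19), and TAC replicates 1, 2 and 3 stood -0.02, -0.57 and -0.64 log2 units from the sham mean. For Hadhb these were 0.13, -0.35 and -0.41, in the same order of libraries.

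The auxiliary enzymes that bring double bonds of unsaturated chains into the spiral had a median log2 fold change of -0.31, and all 4 were negative. Ech1, a dienoyl-CoA isomerase, had 737, 812 and 815 FPKM in the sham and 868, 486 and 651 FPKM in the TAC libraries, and a log2 fold change of -0.24 (adjusted p = 0.514, SE 0.22). TAC replicate 1 was the highest of all libraries for Ech1 and TAC replicate 2 the lowest. Eci1, an enoyl-CoA isomerase, had 158, 167 and 178 FPKM in the sham and 153, 102 and 102 FPKM in the TAC libraries, without overlap in FPKM, although TAC replicate 1 was near the sham values, and a log2 fold change of -0.48 (adjusted p = 0.177, SE 0.20). Eci2, a second such isomerase, was at -0.39 and Decr1, the dienoyl-CoA reductase, at -0.19. Without TAC replicate 1 all 4 passed as lower.

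The electron transfer flavoprotein and its dehydrogenase collect electrons from every acyl-CoA dehydrogenase, and their 3 genes had a median log2 fold change of -0.26. Etfb, the smaller subunit, had 416, 494 and 494 FPKM in the sham and 428, 254 and 267 FPKM in the TAC libraries, and a log2 fold change of -0.53 (adjusted p = 0.200, SE 0.23). Its counts were fractional, and 47.7% of its 100-base stretches also occur in the overlapping gene Gm45233. Etfa, the larger subunit, had 236, 250.2 and 239.9 FPKM in the sham and 269, 205 and 162 FPKM in the TAC libraries, and a log2 fold change of -0.18 (adjusted p = 0.626, SE 0.21). TAC replicate 1 was highest of all 6 libraries for Etfa and inside the sham range for Etfb. The dehydrogenase gene Etfdh was at -0.26. Without TAC replicate 1 only Etfb passed, at -0.87 (adjusted p = 0.00796), with adjusted p of 0.0976 for Etfa and 0.105 for Etfdh.

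Thioesterases, which cleave acyl-CoA back to free fatty acid, included the member with the lowest value of all, Acot1. Acot1 (ENSMUSG00000072949, chromosome 12, 84009490 to 84018371 on the plus strand), the cytosolic form known as a target of PPAR alpha, had 8.69, 22.2 and 19.7 FPKM in sham replicates 1, 2 and 3 and 6.84, 4.56 and 3.97 FPKM in TAC replicates 1, 2 and 3. All TAC values were below all sham values, although sham replicate 1 was nearer to TAC replicate 1 than to the other sham libraries. The means were 16.9 ± 7.21 FPKM in sham and 5.12 ± 1.52 FPKM in TAC (SD, n = 3 each), and the log2 fold change was -1.77 (adjusted p = 0.0679, SE 0.43), which passed in DESeq2 (adjusted p = 3.46e-04). Acot2, its mitochondrial neighbour, had 25.5, 36.8 and 45.7 FPKM in the sham and 25.6, 15.9 and 11.6 FPKM in the TAC libraries, and a log2 fold change of -0.99 (adjusted p = 0.110, SE 0.32). Sham replicate 1 and TAC replicate 1 had nearly equal Acot2 values, so the groups overlapped. The counts of both genes were fractional, and 16.3% of the 100-base stretches of Acot1 occur in Acot2, so reads of the pair could have been split between them. Acot13, a mitochondria-associated form of another family, had 196, 189.7 and 178 FPKM in the sham and 188, 155 and 124 FPKM in the TAC libraries, and a log2 fold change of -0.26 (adjusted p = 0.402, SE 0.19). TAC replicate 1 lay within the sham range for Acot13 and the other TAC libraries below it.

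Genes that set the choice between fatty acids and glucose had the lowest median of the roles, a log2 fold change of -1.34 over 4 genes, and included Pdk4, the member with the widest spread among sham hearts (coefficient of variation 67.2%). Pdk4 (ENSMUSG00000019577, chromosome 6, 5483351 to 5496309 on the minus strand), the kinase that shuts off pyruvate dehydrogenase and so spares glucose, had 63.5, 365 and 406 FPKM in sham replicates 1, 2 and 3 and 105, 44.7 and 104 FPKM in TAC replicates 1, 2 and 3. Sham replicates 2 and 3 were above every other library, while sham replicate 1 was below TAC replicates 1 and 3. Its means were 278 ± 187 FPKM in sham and 84.5 ± 34.5 FPKM in TAC (SD, n = 3 each), and the log2 fold change of -1.71 (adjusted p = 0.136, SE 0.62) did not pass without TAC replicate 1 either, at -1.97 (adjusted p = 0.102). Ucp3, an uncoupling protein of muscle mitochondria known to follow fatty acid supply, had 18.3, 43.1 and 47.7 FPKM in the sham and 19.1, 8.18 and 4.66 FPKM in the TAC libraries. Sham replicate 1 lay within the TAC range for Ucp3, and the log2 fold change was -1.73 (adjusted p = 0.102, SE 0.54). Ucp3 passed in edgeR without TAC replicate 1, at -2.52 (adjusted p = 0.0147), but not in DESeq2 (adjusted p = 0.0837).

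The remaining pair acts on malonyl-CoA from opposite sides, and both genes had lower values in every TAC library than in any sham library. Acacb, the mitochondrial acetyl-CoA carboxylase that makes it, had 43.5, 52.4 and 64.2 FPKM in the sham and 34.9, 29.2 and 25.8 FPKM in the TAC libraries, with means of 53.3 ± 10.4 FPKM in sham and 30.0 ± 4.60 FPKM in TAC (SD, n = 3 each) and a log2 fold change of -0.81 (adjusted p = 0.0661, SE 0.19). Mlycd, malonyl-CoA decarboxylase, which removes it, had 41.2, 63.1 and 67.4 FPKM in the sham and 37.3, 27.5 and 21.4 FPKM in the TAC libraries, with means of 57.2 ± 14.0 FPKM in sham and 28.7 ± 8.03 FPKM in TAC (SD, n = 3 each) and a log2 fold change of -0.97 (adjusted p = 0.0799, SE 0.26). Both passed in DESeq2 (adjusted p = 0.00113 for Acacb and 0.00436 for Mlycd) and in edgeR without TAC replicate 1, at log2 fold changes of -0.98 (adjusted p = 0.0170) for Acacb and -1.26 (adjusted p = 0.0160) for Mlycd.

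**Figure D4:**
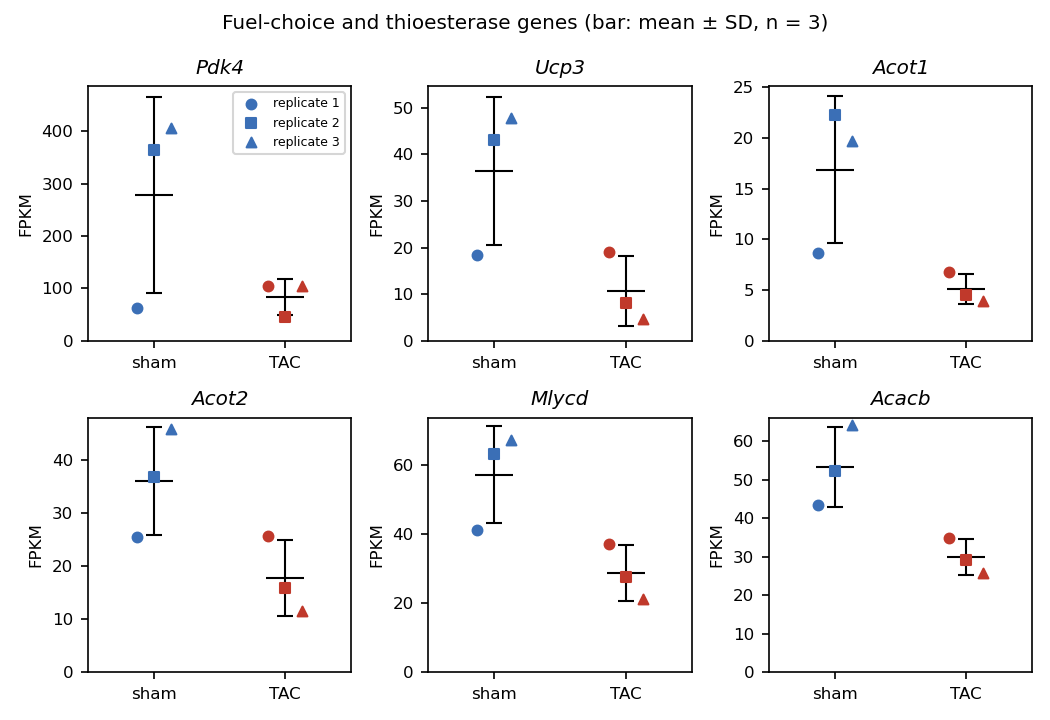
Points give FPKM in each library for Pdk4, Ucp3, Acot1, Acot2, Mlycd and Acacb, with circle, square and triangle for replicates 1, 2 and 3, and bars give mean ± SD (n = 3). Sham replicate 1 is the lowest sham library in all 6 genes, and for Pdk4 it lies below TAC replicates 1 and 3.

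Sham replicate 1 differed from the other sham hearts in a subset of members, a pattern noticed in the values. Its Pdk4 level was 16.5% of the mean of sham replicates 2 and 3, and Ucp3, Acot1, Acot2, Mlycd, Slc27a1, Cpt1a and Acacb followed, with 40.4% for Ucp3 and 74.6% for Acacb at the ends of their range. The other 31 members stood between 84.1% and 106.7%. In 7 of these 8 genes, all but Pdk4, TAC replicates 2 and 3 were below sham replicate 1 as well. Without sham replicate 1 the log2 fold changes were -2.20 for Pdk4 (edgeR adjusted p = 0.103), -2.07 for Ucp3 (0.163) and -2.11 for Acot1 (0.127), and 0 members passed in that edgeR fit of 5 libraries, in which 0.0430% of all genes passed as higher and 0.0716% as lower. The related gene Ehhadh, of the peroxisomal spiral, had 5.10, 9.73 and 11.5 FPKM in the sham and 5.24, 3.04 and 2.21 FPKM in the TAC libraries, so sham replicate 1 was low there too.

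Other genes of fatty acid metabolism and neighbouring pathways, from a list of 75 named for their function, were also mostly below 0 without passing. The table held 74 of them and 69 were tested, of which 0 were called higher and 0 lower, 51 had a negative log2 fold change (47.1% of all tested genes did) and the median was -0.16. At an unadjusted p under 0.05 edgeR gave 3 higher and 12 lower, against 16.3% and 9.26% of all tested genes. DESeq2 called 1 higher and 6 lower, against 7.81% and 4.36%. The smallest adjusted p belonged to Prkaa2, a catalytic subunit of AMP-activated kinase, with 12.7, 12.6 and 11.1 FPKM in the sham and 15.4, 16.8 and 17.4 FPKM in the TAC libraries and a log2 fold change of 0.45 (adjusted p = 0.0733, SE 0.11). Rxra, the partner of PPAR receptors, had 17.1, 19.1 and 23.6 FPKM in the sham and 14.8, 13.2 and 13.8 FPKM in the TAC libraries and a log2 fold change of -0.44 (adjusted p = 0.0805, SE 0.12). Pdp2, a phosphatase that counters PDK4, had 7.17, 6.73 and 7.41 FPKM in the sham and 5.08, 3.01 and 2.43 FPKM in the TAC libraries and a log2 fold change of -0.995 (adjusted p = 0.0833, SE 0.28). Acss2, the cytosolic acetyl-CoA synthetase, had 21.0, 16.8 and 18.1 FPKM in the sham and 14.2, 12.8 and 12.7 FPKM in the TAC libraries and a log2 fold change of -0.48 (adjusted p = 0.0935, SE 0.14). For each of these 4 genes, picked for their small p, the TAC and sham values did not overlap. Of the 69 tested related genes, 17 were lower and 3 higher in TAC without overlap in FPKM. The shares of all tested genes were 14.2% and 14.8%.

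By function, the tested related genes stood lowest in mitochondrial acyl-CoA metabolism, with a median log2 fold change of -0.39 over 13 genes. That group is not limited to fatty acids and also holds genes of branched-chain amino acid and propionate breakdown. Next came carnitine transport, with a median of -0.37 over 3 genes, among them the carrier Slc25a20 (-0.37). Activation genes had a median of -0.31 over 5, transcription factors and coactivators of -0.19 over 10, and peroxisomal genes of -0.13 over 12. Uptake genes (9), thioesterases (8) and further genes of fuel choice (9) had medians of -0.01, -0.07 and -0.08. Without TAC replicate 1, 21 of 70 tested related genes passed as lower and 2, Prkaa2 and Acot9, as higher, against 10% and 13.2% of all genes tested in that fit. Of 10 transcription factors and coactivators on the list, 0 passed in edgeR on all 6 libraries, and Rxra passed as lower without TAC replicate 1 (adjusted p = 0.0179). The main receptors and coactivator of the pathway, Ppara, Esrra and Ppargc1a, passed in neither fit. Ppara had 7.98, 7.56 and 9.09 FPKM in the sham and 6.47, 8.06 and 5.27 FPKM in the TAC libraries and a log2 fold change of -0.25 (adjusted p = 0.377, SE 0.17). Ppargc1a had 13.4, 15.4 and 17.3 FPKM in the sham and 9.47, 23.6 and 11.9 FPKM in the TAC libraries and a log2 fold change of 0.25 (adjusted p = 0.476, SE 0.21), with TAC replicate 2 the highest and TAC replicate 1 the lowest of all libraries. The fold change, taken from counts, was above 0 although the FPKM values of TAC replicates 1 and 3 were below every sham value. Counts and FPKM thus did not give the same picture for Ppargc1a, and its direction is left undecided. Esrra had 39.9, 42.5 and 39.8 FPKM in the sham and 35.3, 32.4 and 34.5 FPKM in the TAC libraries and a log2 fold change of -0.21 (adjusted p = 0.252, SE 0.11). Its TAC values all lay below its sham values, while those of Ppara and Ppargc1a overlapped. In FPKM, 4 of the 10 transcription factors and coactivators lay lower in this way, as did 14.2% of all tested genes.

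Marker genes of cells in the tissue also differed between libraries. All 13 cardiomyocyte markers were present in every library, at 18.3 FPKM or more. Their median stood 0.09, -0.14 and -0.56 log2 units from the sham mean in TAC replicates 1, 2 and 3. Their summed level was 41855 to 43540.2 FPKM in sham and 32736 to 44792 FPKM in TAC. After subtraction of the cardiomyocyte median from each library, a choice made after seeing the data, the fatty acid genes stood -0.08, -0.42 and -0.15 from the sham mean in TAC replicates 1, 2 and 3, and their median log2 fold change was -0.21. In TAC replicate 3 the medians of the cardiomyocyte markers and of the fatty acid genes were thus both low. The fatty acid genes stood below the marker median in TAC replicates 2 and 3, by more in TAC replicate 2. The markers were split in TAC replicate 3. Actn2 and Ttn were above every sham library in FPKM, and Actc1 and Tnnc1 within the sham range. Myh6, Tnni3, Mb and Mybpc3, among others, were below every sham library. All 8 macrophage markers had positive log2 fold changes and 2 of them, Cd68 and Mrc1, passed as higher, with summed levels of 391 to 471 FPKM in sham and 521 to 798 FPKM in TAC. All 6 neutrophil markers had positive log2 fold changes and 3 of them, S100a8, S100a9 and Mmp8, passed as higher, with summed levels of 2.58 to 10.8 FPKM in sham and 30.8 to 185 FPKM in TAC. Endothelial markers, of cells whose surface also carries CD36 and lipoprotein lipase, summed to 578 to 607 FPKM in sham and 514 to 627 FPKM in TAC, and fibroblast markers to 1724 to 1936 FPKM in sham and 832 to 1328 FPKM in TAC. The fibroblast sums were carried by Gsn, without which they were 766 to 853 FPKM in sham and 542 to 830.2 FPKM in TAC and overlapped. Adipocyte markers, of cells that also express Lpl, Cd36 and Acsl1, summed to 121 to 526 FPKM in sham and 34.4 to 230.0 FPKM in TAC, with TAC replicate 3 the lowest. Brown adipocyte markers summed to 36.0 to 109.8 FPKM in sham and 25.2 to 53.1 FPKM in TAC. Atrial markers summed to 2535 to 3852 FPKM in sham and 3099 to 3641 FPKM in TAC, carried by Nppa, a natriuretic peptide gene that load also induces, and to 1009 to 1482 FPKM in sham and 634 to 1066 FPKM in TAC without it. The median of the 5 atrial markers stood -0.09, -0.48 and -0.89 log2 units from the sham mean in TAC replicates 1, 2 and 3, the same order of TAC libraries as in the fatty acid genes. In sham replicates 1, 2 and 3 the atrial median was 0.015, 0.299 and -0.304, where that of the fatty acid genes was -0.067, 0.033 and 0.042. No marker of any of these lists was at 0 in a library. The median of the 13 mitochondrially encoded genes stood 0.45, 0.57 and 0.19 log2 units from the sham mean in TAC replicates 1, 2 and 3. Their medians in the sham libraries ran from -0.169 to 0.155. In TAC replicates 2 and 3 this median was above 0 and that of the fatty acid genes below it. The log2 fold change was above 0 in 11 of the 13 genes and below 0 in 2, mt-Co1 (-0.15) and mt-Co3 (-0.01). The part of cell makeup in the values of the fatty acid genes was not tested.

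**Figure D5:**
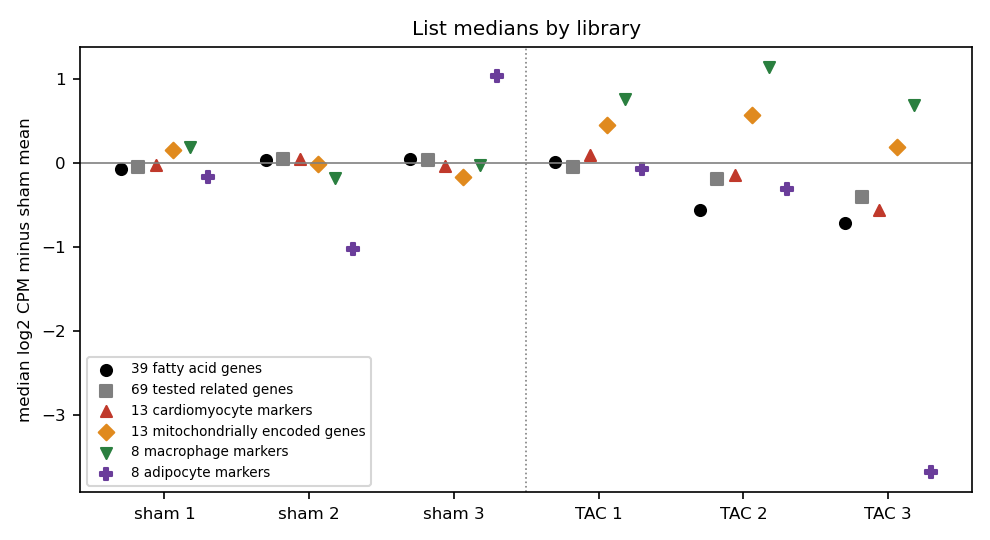
Points give, for each library, the median over a gene list of log2 CPM minus the sham mean. The fatty acid genes are at 0.01, -0.56 and -0.71 in TAC replicates 1, 2 and 3, the cardiomyocyte markers at 0.09, -0.14 and -0.56, and macrophage markers and mitochondrially encoded genes are above 0 in all 3.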

How the data were processed

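Polyadenylated RNA of each heart was made into libraries with a NEBNext Ultra RNA kit and read on an Illumina NovaSeq, per the labels' protocols. The deposited table pairs an estimated count with an FPKM value for each gene and library, per the file headers. The submitters' processing notes name GRCm38 and, as tools, HISAT2, Bowtie2 2.2.8, DESeq2 and StringTie 1.3.1. Which tool made which column, the strand setting and the filters were not stated in the sources used here. A GENCODE M21 annotation of GRCm38 gave symbols for 22255 of 22298 identifiers.

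Sample titles gave groups and replicate numbers. Estimated counts were rounded, filtered with filterByExpr (minimum count 10), scaled by TMM and tested two-sided by edgeR's quasi-likelihood test (glmQLFit, glmQLFTest, no covariate; edgeR 4.0.16, R 4.3.3), with Benjamini-Hochberg adjustment over 13708 genes. The standard error is approximate, the fold change divided by the square root of F. The biological coefficient of variation was 21.7%. The scripts were tested on simulated data. Alternatives were DESeq2 1.42.0, limma 3.58.1, other scalings and filters, limma on FPKM (minimum 1 in 3 libraries, pseudocounts 1 and 0.1), a replicate block, and each library left out. Counts of genes whose groups did not overlap, the Acsl1 share, centring on cardiomyocyte markers and marker sums without Gsn or Nppa were added after the data were seen. No library repeated another: within a group, pairs differed by a chi-square per degree of freedom of at least 11.7.

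The roles, the related genes and the marker lists, like the 39 members, were chosen with earlier results of these data known. Values in every library are given for the 2 most abundant members of each role, the 10 with the smallest adjusted p and all with a positive fold change. The related genes with the 4 smallest adjusted p and Ppara, Ppargc1a and Esrra were named by rule, and Ehhadh, Slc25a20, Acot9 and Acsl6 after their values were seen. Sequence shared with another gene is the share of 100-base stretches of a gene's transcripts that occur in the other's.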

Additional observations from a re-analysis of the deposited data

How the results depend on the processing

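The counts of 0 members higher and 0 lower were the same with DESeq2 size factors, without mitochondrially encoded genes, without the filter on low counts, on FPKM with either pseudocount and with the replicate block. Higher and lower members numbered 2 and 7 with DESeq2's Wald test, 2 and 17 with limma-voom and library weights, and 2 and 4 at an adjusted p under 0.10. Related genes numbered 1 and 6, 1 and 9, and 1 and 4 in these settings. With 1 library left out, members called higher ranged from 0 to 2 and lower from 0 to 24, and related genes from 0 to 2 and from 0 to 21, each time highest without TAC replicate 1. Where 1 library of a group was left out, the median log2 fold change of members ranged from -0.62 to -0.29. Over 14 alternatives, 34 of 39 members kept the sign of their log2 fold change. The exceptions were Lpl, from -0.069 (without TAC replicate 2) to 0.403 with 1 library left out, and 4 genes that were above 0 only without TAC replicate 3 and lowest without TAC replicate 1: Acadl (-0.259 to 0.033), Acadm (-0.318 to 0.089), Acad10 (-0.321 to 0.049) and Etfa (-0.435 to 0.002). The log2 difference of the Cpt1a to Cpt1b ratio was -0.17 (FPKM) and ranged from -0.31 to -0.05 without 1 library. Same-numbered sham and TAC libraries did not deviate together (correlations of 0.011, -0.111 and -0.024). With 3 libraries per group this cannot show whether the titles' numbers pair hearts, which the titles do not state. The replicate block gave 0 and 0 members, with 48 higher and 26 lower genes in all against 153 and 74. With 3 libraries per group, exact tests cannot give p below 0.1.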
